A study of Saccharomyces cerevisiae with 24 samples.

Results

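Ribosome biogenesis factors are the non-ribosomal proteins that build the small and large ribosomal subunits in the nucleolus. The 50 factors described here were taken by locus identifier from a list of box C/D and box H/ACA proteins, UTP, NOP and NOC factors and related assembly proteins, and no ribosomal protein was included. All 50 were present among the 6571 rows of the strand-specific sense count table of Saccharomyces cerevisiae, and all 50 were among the 5790 genes that passed the filter on low counts and were tested. Most of the listed proteins are nucleolar, but REI1 encodes a cytoplasmic factor, ARX1 a protein that shuttles with the large subunit, and DBP2 an RNA helicase with wider roles, so the name covers more than the nucleolus.

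RNA was sequenced from 8 strains with 3 biological replicates each, 24 libraries in all. Every strain carried MATa his3Δ200 lys2-128Δ ura3-52 trp1Δ63, and each group was a single strain. In the tagged background, the 4 mutants were rad6Δ tagged (3xHA-RTF1 with rad6Δ::KanMX, and so without the Myc tag that sits on RAD6), rtf1-108-110AAA (3HA-rtf1-108-110AAA with RAD6-13xMYC::KanMX), rad6-R6Q and rad6-R6A,M10A (3xHA-RTF1 with the mutant rad6 allele fused to 13xMyc and marked with KanMX), and their control was WT tagged (3xHA-RTF1 with RAD6-13xMYC::KanMX). In the untagged background, the mutants were rad6Δ untagged (rad6Δ::KanMX) and H2B-K123R (both H2B genes altered, HTA1-htb1K123R and HTA2-htb2-K123R), and the control was WT untagged. Cells grew in YPD to log phase, and 9 parts of S. cerevisiae were mixed with 1 part of Kluyveromyces lactis cells by optical density before RNA was extracted.

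Rad6 is the ubiquitin-conjugating enzyme that places ubiquitin on lysine K123 of histone H2B during transcription, and it also acts with other ligases in protein degradation and DNA damage tolerance. Rtf1, a subunit of the Paf1 complex on elongating RNA polymerase II, stimulates that modification. In yeast, ribosome biogenesis genes rise and fall together with growth, and many carry the PAC and RRPE promoter elements, which are bound by the repressors Dot6 and Tod6 (PAC) and Stb3 (RRPE). The comparisons address how the RNA of these genes differed when Rad6, its N-terminal residues, the Rtf1 region that stimulates it, or the modified lysine of H2B was altered.

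Each library held between 7227245 and 10782960 sense counts, between 411344 and 611282 antisense counts and between 1051104 and 1591505 counts of K. lactis genes. RAD6 had 0 counts in all 3 rad6Δ untagged libraries and 0 to 1 in the rad6Δ tagged libraries. STE2 and BAR1, which MATa cells express, had 1565 to 10218 and 935 to 7107 counts, whereas the alpha pheromone gene MF(ALPHA)1 had 0 to 4. Of the other MATa markers, STE6 had 3522 to 10383 counts, MFA1 31 to 489, MFA2 27 to 214 and AGA2 5 to 58. Of the other alpha markers, STE3 had 20 to 77, SAG1 4 to 26 and MF(ALPHA)2 1 to 20. These weaker markers did not all separate the mating types: in rad6Δ tagged, AGA2 (5 to 7) lay below STE3 (34 to 57). Levels below are CPM, the counts of a gene relative to the library size after TMM scaling, and log2 fold changes are mutant over its own WT with their standard error (SE). A gene was called when its adjusted p in edgeR's quasi-likelihood test, with Benjamini-Hochberg adjustment over all 5790 genes, was under 0.05. TMM scaling sets the level of a gene relative to the bulk of genes, so a value is not a plain share of the RNA. The members' summed share of sense counts was 2.25% in rad6Δ tagged and 2.09% in WT tagged. Their summed CPM went the other way, at 20690 and 22180. The K. lactis cells mixed in before extraction give a second scale, used below.

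The promoters are shown first because they are what the genes share beyond their function. Windows of 250 bases before to 50 bases after the start codon of each gene were read from the R64 genome and searched on both strands for the PAC core GATGAG and the RRPE core GAAAAATTT, with overlapping matches allowed. The PAC core lay in 48 of the 50 windows (96%), against 19.9% of all 5896 protein-coding windows, and the RRPE core in 29 (58%), against 6.19%. Both motifs were found in 28 windows (56%), against 3.14% of all windows. UTP22 had neither motif and UTP15 had RRPE alone. The median start of a match was 116 bases before the start codon for PAC and 140 bases before it for RRPE. In the 5 windows below, motif letters on either strand are in capitals and all other letters are in lower case. RRP5, YTM1 and NSR1 were picked as the members with both motifs whose largest adjusted p across the mutants in edgeR was smallest (0.135, 0.169 and 0.181). This rule does not rank the strength of single calls. NOP1 and CBF5 are shown as the box C/D and box H/ACA enzymes. The 5 windows lie at chrXIII:731074-731373 (minus strand, RRP5), chrXV:832563-832862 (plus strand, YTM1), chrVII:807607-807906 (minus strand, NSR1), chrIV:427114-427413 (plus strand, NOP1) and chrXII:505884-506183 (plus strand, CBF5).
RRP5: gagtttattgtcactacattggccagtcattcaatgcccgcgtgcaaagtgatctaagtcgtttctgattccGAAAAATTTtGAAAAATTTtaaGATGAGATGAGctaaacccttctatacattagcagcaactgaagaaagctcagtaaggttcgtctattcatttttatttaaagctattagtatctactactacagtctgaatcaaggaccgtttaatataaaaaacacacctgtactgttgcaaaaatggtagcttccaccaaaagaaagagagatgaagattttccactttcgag
YTM1: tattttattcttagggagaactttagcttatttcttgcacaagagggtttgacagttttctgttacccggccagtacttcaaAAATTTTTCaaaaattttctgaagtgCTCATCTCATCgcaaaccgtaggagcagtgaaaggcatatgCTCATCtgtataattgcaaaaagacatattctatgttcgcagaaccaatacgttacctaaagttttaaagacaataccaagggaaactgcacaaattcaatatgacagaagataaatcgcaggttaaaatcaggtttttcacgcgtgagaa
NSR1: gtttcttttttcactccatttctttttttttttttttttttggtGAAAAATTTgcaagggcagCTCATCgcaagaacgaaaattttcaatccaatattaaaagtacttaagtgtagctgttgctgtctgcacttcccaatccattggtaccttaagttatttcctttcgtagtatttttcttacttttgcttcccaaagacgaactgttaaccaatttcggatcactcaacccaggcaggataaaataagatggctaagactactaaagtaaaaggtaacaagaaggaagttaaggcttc
NOP1: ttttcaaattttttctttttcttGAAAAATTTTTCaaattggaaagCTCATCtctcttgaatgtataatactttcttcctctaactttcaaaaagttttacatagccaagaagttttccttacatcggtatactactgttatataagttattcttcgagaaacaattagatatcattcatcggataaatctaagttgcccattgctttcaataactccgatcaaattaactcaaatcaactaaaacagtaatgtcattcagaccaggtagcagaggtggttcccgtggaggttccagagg
CBF5: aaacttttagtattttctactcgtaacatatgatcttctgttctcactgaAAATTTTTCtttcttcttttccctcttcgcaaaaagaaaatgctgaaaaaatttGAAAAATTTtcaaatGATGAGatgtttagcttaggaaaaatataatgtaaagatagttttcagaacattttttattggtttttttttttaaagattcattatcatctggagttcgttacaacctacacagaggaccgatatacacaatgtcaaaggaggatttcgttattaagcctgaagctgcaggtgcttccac

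RRP5 and YTM1 each held PAC cores in a staggered pair that overlaps by 1 base, and the RRP5 window also held a pair of RRPE cores. NSR1, whose transcript was lower in several mutants, held a single core of each kind. Genes listed as small- and large-subunit assembly factors that are not members had a PAC core in 90.9% and 82.3% of their windows. RNA polymerase I genes had it in 82.4%, RNA polymerase III genes in 47.4%, ribosomal protein genes in 10.8% and general stress response genes in 3.85%. The motif class did not line up with the direction of change in one way. Among the 28 members with both motifs, 6 were called higher in rtf1-108-110AAA (all genes 11.9%), 6 in rad6-R6Q cells (14.6%) and 6 in rad6Δ untagged (22.3%), while 7 were called lower in rad6Δ tagged (20.2%). Among the 20 members with PAC alone, 2 were called higher in each of the first 3 strains and 3 lower in rad6Δ tagged.

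Across the 6 mutants the biogenesis factors did not move as a block, and the counts below have to be read against widespread change in these strains. In rad6Δ tagged against WT tagged, 2 members were called higher and 11 lower, while 41.7% of all genes tested were called. In rad6Δ untagged against WT untagged, 8 were called higher and 4 lower, against 42.8% of all genes. H2B-K123R had 3 higher and 1 lower against 26.3% of all genes. rtf1-108-110AAA had 8 members called, all of them higher, against 24.5% of all genes. rad6-R6Q had 8 higher and 3 lower against 29.1%, and rad6-R6A,M10A had 5 called, all higher, against 25.2%. In every mutant the members' called share was below that of all genes. Among all genes the directions were near balance in the 3 point mutants of the tagged background: 11.9% were called higher and 12.6% lower in rtf1-108-110AAA, 14.6% and 14.5% in rad6-R6Q cells, and 12% and 13.2% in rad6-R6A,M10A. In the other strains 21.5% were higher and 20.2% lower (rad6Δ tagged), 22.3% and 20.5% (rad6Δ untagged), and 14% and 12.3% (H2B-K123R).

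The members' median log2 fold change was 0.16 in rtf1-108-110AAA, 0.14 in H2B-K123R, 0.11 in rad6-R6Q, 0.08 in rad6-R6A,M10A and 0.06 in rad6Δ untagged. The median of all genes tested lay between −0.02 and 0.02 in each of the 6 comparisons. In rad6Δ tagged the median was −0.14, and it turned to 0.05 and 0.17 when libraries were scaled by K. lactis counts with and without a TMM adjustment, and to 0.06 with total-count scaling. A positive log2 fold change was seen for 41 of 50 members in rtf1-108-110AAA, 36 in H2B-K123R, 35 in rad6-R6Q, 34 in rad6Δ untagged, 32 in rad6-R6A,M10A and 15 in rad6Δ tagged. Many members vary together between libraries, so these sign counts are a description and not separate observations. The 4 tagged mutants share the WT tagged libraries and the 2 untagged mutants share the WT untagged libraries, so the comparisons within a background are not independent. In rad6Δ tagged, all 3 libraries lay below all 3 WT tagged libraries for 17 members, against 27.5% of all genes tested, and above them for 5, against 28.8%. In rad6Δ untagged the counts were 8 below (all genes 28.9%) and 16 above (29.6%), and in H2B-K123R 4 below (24%) and 14 above (23.1%). In rtf1-108-110AAA cells, 11 members lay wholly above WT tagged (17.5%) and 2 wholly below (18.5%). The counts were 6 above (18.1%) and 4 below (18.7%) for rad6-R6Q, and 10 above (20.1%) and 3 below (21.1%) for rad6-R6A,M10A. Between the controls, WT tagged lay wholly above WT untagged for 12 members and wholly below for 5. The share of all genes was not computed for that pair. Separation of this kind therefore also arose between strains without a mutation in the pathway.

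**Figure D1:**
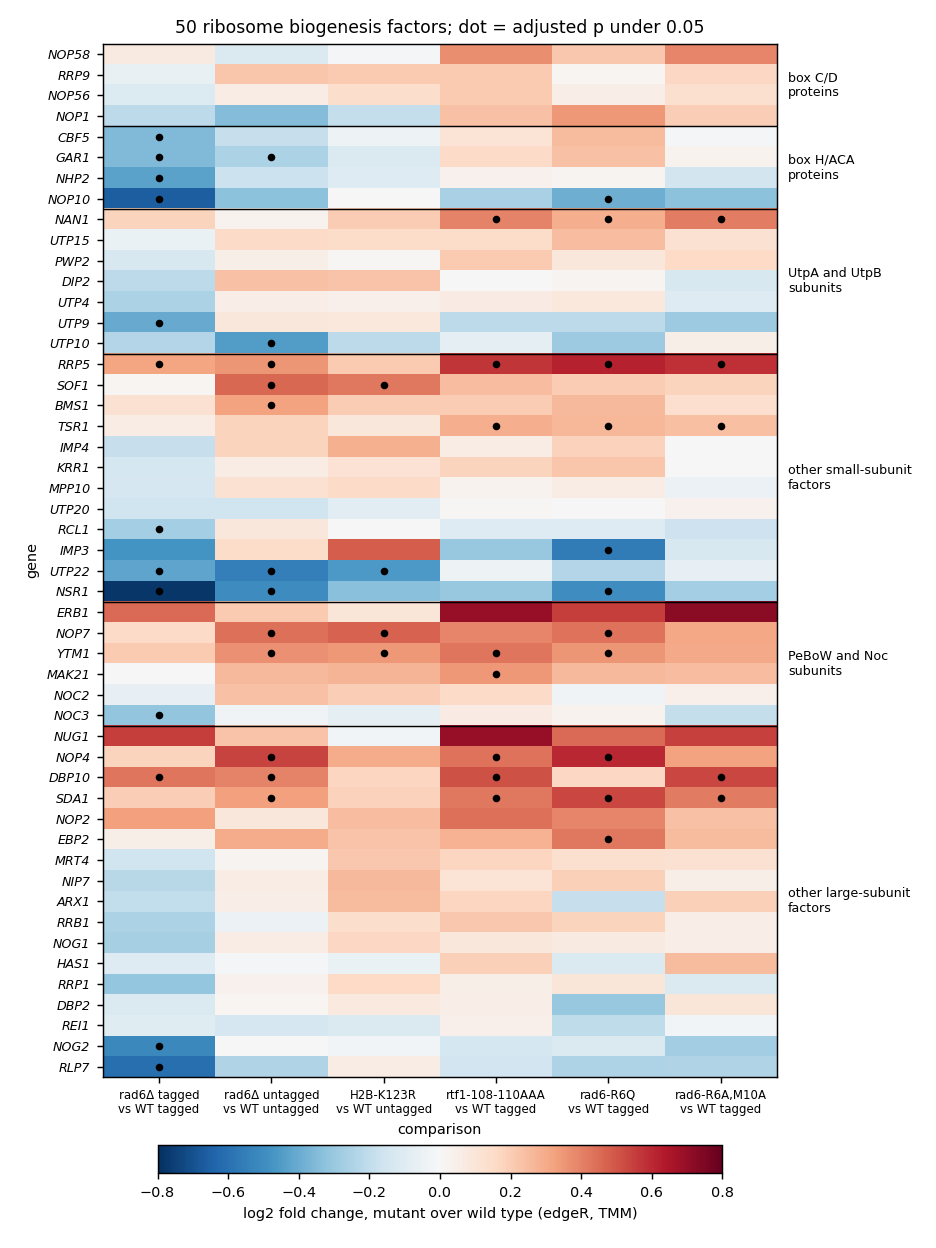
Log2 fold change of each of the 50 members (rows, grouped by role) in the 6 mutants (columns), each against its own WT. Colour runs with the log2 fold change and a dot marks an adjusted p under 0.05 in edgeR; RRP5 is called higher in 5 of the 6 columns, and most marked falls are in the rad6Δ tagged column.

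Of the 50 members, 25 were called in at least 1 of the 6 mutants and 25 in none. The 25 that were called in none were NOP1, NOP56, NOP58, RRP9, UTP4, UTP15, DIP2, PWP2, UTP20, IMP4, MPP10, KRR1, ERB1, NOC2, NOP2, RRP1, MRT4, NOG1, NUG1, DBP2, HAS1, RRB1, NIP7, ARX1 and REI1. Of the called members, 12 were only ever higher and 13 only ever lower, and none was called in opposite directions in different mutants. Per mutant, 24.5% to 42.8% of all genes were called. The share of all genes called in at least 1 mutant was not computed, so these counts describe the members and show no difference from other genes. The members called higher most often were RRP5 (5 mutants), DBP10, SDA1 and YTM1 (4 each), and NOP4, NOP7, NAN1 and TSR1 (3 each). NSR1 and UTP22 were called lower in 3 mutants each, and GAR1 and NOP10 in 2 each. When each library was left out in turn, 18 of the 53 calls were kept in all 6 fits of their comparison, and no call changed sign. The kept share over the calls of all genes was not computed.

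RRP5 (YMR229C) encodes an RNA-binding protein needed for both subunits. Its level was 2202, 2269 and 2348 CPM in rad6Δ tagged, 2959, 2734 and 2462 in rtf1-108-110AAA cells, 3253, 2436 and 2720 in rad6-R6Q cells and 2668, 2861 and 2692 in rad6-R6A,M10A, against 1743, 1787 and 1954 in WT tagged. All 12 libraries of the tagged mutants were above all 3 WT tagged libraries. It was 2431, 2271 and 2506 CPM in rad6Δ untagged and 2212, 1992 and 2306 in H2B-K123R, against 1883, 1805 and 1951 in WT untagged, again without overlap. RRP5 rose by a log2 fold change of 0.31 ± 0.10 (SE; adjusted p = 0.0153) in rad6Δ tagged and 0.35 ± 0.10 (adjusted p = 0.00678) in rad6Δ untagged. The rise was 0.57 ± 0.10 (adjusted p = 0.00027) in rtf1-108-110AAA, 0.62 ± 0.10 (adjusted p = 0.0001) in rad6-R6Q and 0.58 ± 0.10 (adjusted p = 0.00022) in rad6-R6A,M10A. In H2B-K123R the value was 0.21 ± 0.10 and missed the threshold (adjusted p = 0.135). The call in rad6Δ tagged was lost without WT tagged replicate 1 (adjusted p = 0.0709), and the other 4 calls were kept whichever library was left out.

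**Figure D2:**
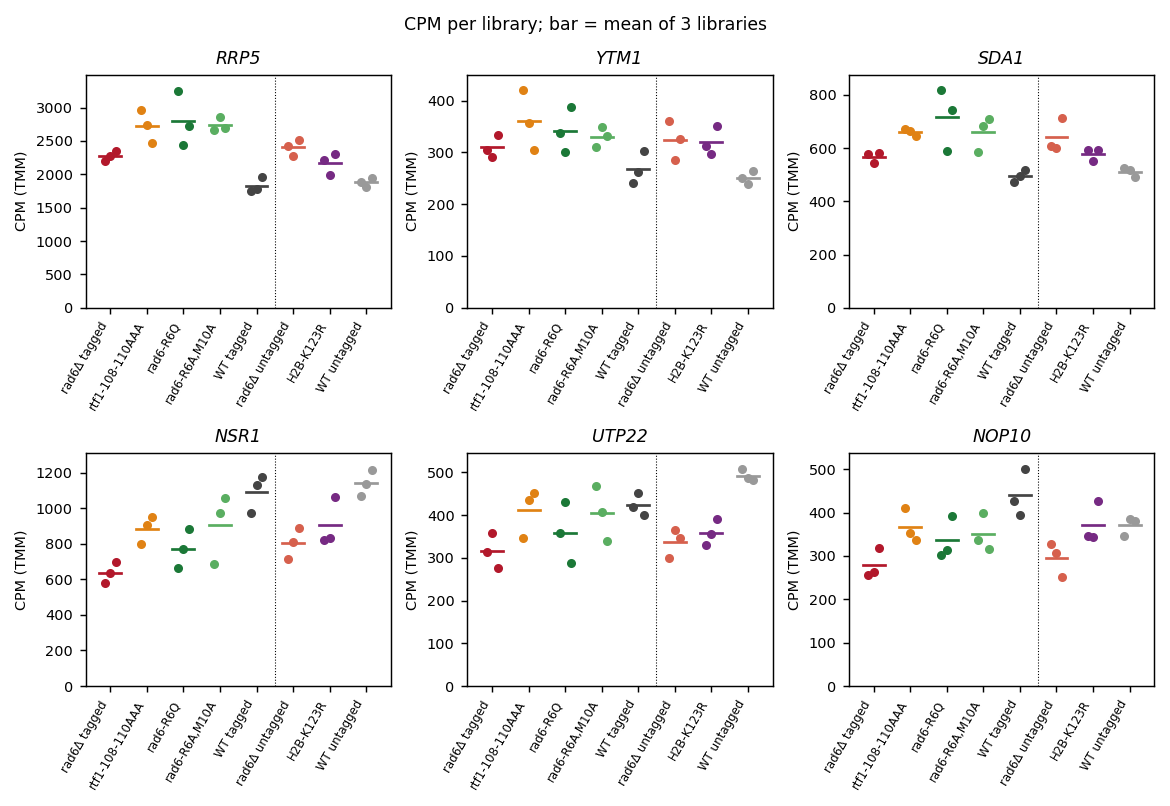
CPM of 6 members in each library (points) with the mean of 3 libraries (bars); the 4 tagged mutants stand left of WT tagged, and the 2 untagged mutants left of WT untagged. RRP5 is above its WT in every mutant library, and NSR1 in rad6Δ tagged (577 to 696 CPM) lies wholly below WT tagged (972 to 1177 CPM).

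SDA1 (YGR245C), which encodes a protein needed for large-subunit maturation and export, was called higher in 4 mutants. It had 673, 664 and 647 CPM in rtf1-108-110AAA, 818, 589 and 743 in rad6-R6Q cells and 586, 684 and 711 in rad6-R6A,M10A, against 473, 494 and 516 in WT tagged. In rad6Δ untagged it had 610, 599 and 715 CPM, against 524, 516 and 492 in WT untagged, and in none of these 4 comparisons did the groups overlap. The log2 fold changes were 0.42 (adjusted p = 0.00541) in rtf1-108-110AAA, 0.53 (adjusted p = 0.00063) in rad6-R6Q, 0.42 (adjusted p = 0.00572) in rad6-R6A,M10A and 0.33 (adjusted p = 0.0143) in rad6Δ untagged, each ± 0.10 (SE). The 3 calls in the tagged background were kept in every fit without 1 library. The call in rad6Δ untagged was lost without rad6Δ untagged replicate 3 or without WT untagged replicate 3 (largest adjusted p = 0.0698).

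Among the PeBoW and Noc subunits, which act in early large-subunit assembly, 2 of 6 members were called higher in rad6Δ untagged (all genes 22.3%), H2B-K123R (14%), rtf1-108-110AAA (11.9%) and rad6-R6Q (14.6%). In rad6Δ tagged 1 of the 6 was called lower and none higher, and in rad6-R6A,M10A edgeR called none (3 at an unadjusted p under 0.05, 1 called higher by DESeq2). YTM1 (YOR272W), a PeBoW subunit, had 360, 285 and 325 CPM in rad6Δ untagged and 313, 297 and 351 in H2B-K123R, against 251, 239 and 265 in WT untagged. It had 420, 356 and 305 CPM in rtf1-108-110AAA and 337, 301 and 388 in rad6-R6Q, against 240, 262 and 302 in WT tagged, where rtf1-108-110AAA lay just above and rad6-R6Q overlapped. The log2 fold changes (each ± 0.12, SE) were 0.36 (adjusted p = 0.0203), 0.35 (adjusted p = 0.0395), 0.43 (adjusted p = 0.0138) and 0.35 (adjusted p = 0.0346) in that order. None of these 4 calls was kept in every fit without 1 library. In rtf1-108-110AAA it was lost without rtf1-108-110AAA replicate 1 or WT tagged replicate 1 (largest adjusted p = 0.0832), and in rad6-R6Q without rad6-R6Q replicate 3 or WT tagged replicate 1 or 2 (largest adjusted p = 0.183). In rad6Δ untagged it was lost without rad6Δ untagged replicate 1 or WT untagged replicate 1 or 2 (largest adjusted p = 0.0893), and in H2B-K123R it was kept only without H2B-K123R replicate 2 (largest adjusted p = 0.118).

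NOP7 (YGR103W), another PeBoW subunit, had 1386, 1238 and 1341 CPM in rad6Δ untagged and 1273, 1168 and 1611 in H2B-K123R, against 914, 1011 and 1000 in WT untagged. The groups did not overlap, and NOP7 rose by 0.44 (adjusted p = 0.0224) and 0.47 (adjusted p = 0.0248) on the log2 scale. In the tagged background it had 1709, 1209 and 1594 CPM in rad6-R6Q, against 988, 1070 and 1275 in WT tagged, with overlap and a log2 fold change of 0.44 (adjusted p = 0.0329). The values were 0.39 (adjusted p = 0.0605) in rtf1-108-110AAA, 0.31 (adjusted p = 0.133) in rad6-R6A,M10A and 0.15 (adjusted p = 0.438) in rad6Δ tagged, and these missed the threshold (SE 0.15 throughout). The rad6Δ untagged call was lost without rad6Δ untagged replicate 1 or WT untagged replicate 1 (largest adjusted p = 0.0832). The H2B-K123R call was lost without H2B-K123R replicate 3 or WT untagged replicate 1 or 3 (largest adjusted p = 0.117), and the rad6-R6Q call without rad6-R6Q replicate 1 or 3 or WT tagged replicate 1 or 2 (largest adjusted p = 0.154). The Noc proteins carry pre-ribosomes from the nucleolus to the nucleoplasm. MAK21 (YDR060W), also known as Noc1, had 1202, 1098 and 1009 CPM in rtf1-108-110AAA, against 748, 860 and 989 in WT tagged, a log2 fold change of 0.35 ± 0.12 (SE, adjusted p = 0.0339). That call was lost without rtf1-108-110AAA replicate 1 or 2 or WT tagged replicate 1 or 2 (largest adjusted p = 0.201). NOC2 (YOR206W), its partner, had 416, 419 and 368 CPM in rtf1-108-110AAA, against 310, 376 and 397 in WT tagged, with overlap, and was called in none of the 6 mutants.

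NOP4 (YPL043W), an RNA-binding factor of the early large subunit, had 426, 499 and 555 CPM in rad6Δ untagged, against 318, 363 and 336 in WT untagged. It had 514, 534 and 515 CPM in rtf1-108-110AAA and 695, 461 and 599 in rad6-R6Q, against 372, 401 and 381 in WT tagged. None of these mutant libraries overlapped its WT. The log2 fold changes (each ± 0.12, SE) were 0.54 (adjusted p = 0.00102) in rad6Δ untagged, 0.44 (adjusted p = 0.0108) in rtf1-108-110AAA and 0.61 (adjusted p = 0.00076) in rad6-R6Q. The rtf1-108-110AAA call was lost without WT tagged replicate 1 (adjusted p = 0.0545), and the other 2 calls were kept in every fit. DBP10 (YDL031W), a DEAD-box helicase of the large-subunit pathway, rose by 0.43 (adjusted p = 0.0304) in rad6Δ tagged, 0.40 (adjusted p = 0.0428) in rad6Δ untagged, 0.51 (adjusted p = 0.0199) in rtf1-108-110AAA and 0.53 (adjusted p = 0.0148) in rad6-R6A,M10A. Its levels were 190, 235 and 180 CPM in rad6Δ tagged, 171, 241 and 225 in rtf1-108-110AAA and 268, 208 and 174 in rad6-R6A,M10A, against 134, 172 and 144 in WT tagged. They were 198, 212 and 222 CPM in rad6Δ untagged, against 165, 156 and 159 in WT untagged. The rtf1-108-110AAA range began just below the highest WT tagged library. The DBP10 call in rad6Δ untagged was kept in none of the 6 fits without 1 library (largest adjusted p = 0.125), and those in rad6Δ tagged, rtf1-108-110AAA and rad6-R6A,M10A were each lost without WT tagged replicate 1 or 3. They were also lost without rad6Δ tagged replicate 1 or 2 (adjusted p up to 0.18), rtf1-108-110AAA replicate 2 or 3 (up to 0.122) and rad6-R6A,M10A replicate 1 (up to 0.126).

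In the small-subunit processome, the UtpA subunit NAN1 (YPL126W) had 444, 460 and 483 CPM in rtf1-108-110AAA, 457, 415 and 415 in rad6-R6Q cells and 445, 468 and 486 in rad6-R6A,M10A, against 325, 358 and 369 in WT tagged. All 9 mutant libraries lay above WT tagged. The log2 fold changes (each ± 0.09, SE) were 0.40 (adjusted p = 0.0023), 0.29 (adjusted p = 0.0172) and 0.41 (adjusted p = 0.00184). The rad6-R6Q call was lost without rad6-R6Q replicate 1 or WT tagged replicate 1 (largest adjusted p = 0.136). TSR1 (YDL060W), a factor of late small-subunit maturation, rose in the same 3 strains by 0.29 (adjusted p = 0.0139) in rtf1-108-110AAA, 0.27 (adjusted p = 0.0206) in rad6-R6Q and 0.24 (adjusted p = 0.0394) in rad6-R6A,M10A. It had 253, 275 and 245 CPM in rtf1-108-110AAA, 257, 239 and 263 in rad6-R6Q cells and 249, 262 and 235 in rad6-R6A,M10A, against 193, 219 and 220 in WT tagged. These groups did not overlap, but each TSR1 call was lost without WT tagged replicate 1 (adjusted p up to 0.223). The rtf1-108-110AAA call was also lost without rtf1-108-110AAA replicate 2, the rad6-R6Q call without rad6-R6Q replicate 3, and the rad6-R6A,M10A call without its replicate 1 or 2 or WT tagged replicate 3. In the untagged background, SOF1 (YLL011W), a processome subunit, had 297, 280 and 310 CPM in rad6Δ untagged and 268, 251 and 348 in H2B-K123R, against 203, 217 and 226 in WT untagged. SOF1 rose by 0.46 (adjusted p = 0.00442) and 0.42 (adjusted p = 0.0133). The first of these was kept in every fit without 1 library, and the second was lost without H2B-K123R replicate 3 or WT untagged replicate 1 (largest adjusted p = 0.0856). BMS1 (YPL217C), a processome GTPase, rose by 0.32 (adjusted p = 0.0339) in rad6Δ untagged, and EBP2 (YKL172W), a large-subunit factor, by 0.42 (adjusted p = 0.0161) in rad6-R6Q. The BMS1 call was kept only without rad6Δ untagged replicate 2 (largest adjusted p = 0.0979), and the EBP2 call was lost without rad6-R6Q replicate 1 or 3 or WT tagged replicate 1 (largest adjusted p = 0.0952).

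NSR1 (YGR159C) encodes a nucleolin-like RNA-binding protein of pre-rRNA processing and was the member that fell furthest in rad6Δ tagged. It had 577, 637 and 696 CPM in rad6Δ tagged, 800, 904 and 950 in rtf1-108-110AAA cells, 661, 772 and 885 in rad6-R6Q cells and 685, 974 and 1059 in rad6-R6A,M10A, against 972, 1130 and 1177 in WT tagged. It had 716, 810 and 888 CPM in rad6Δ untagged and 819, 831 and 1063 in H2B-K123R, against 1065, 1137 and 1216 in WT untagged. All groups except rad6-R6A,M10A lay wholly below their WT. NSR1 fell by 0.78 ± 0.15 on the log2 scale (SE; adjusted p = 0.0002) in rad6Δ tagged, by 0.50 ± 0.15 (adjusted p = 0.00808) in rad6Δ untagged and by 0.50 ± 0.15 (adjusted p = 0.0133) in rad6-R6Q. The values of −0.33 in H2B-K123R (adjusted p = 0.0965), −0.30 in rtf1-108-110AAA (adjusted p = 0.136) and −0.27 in rad6-R6A,M10A (adjusted p = 0.181) missed the threshold. The rad6Δ tagged call was kept whichever library was left out. The rad6Δ untagged call was lost without rad6Δ untagged replicate 1 (adjusted p = 0.0519), and the rad6-R6Q call without rad6-R6Q replicate 1 or WT tagged replicate 3 (largest adjusted p = 0.0677).

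UTP22 (YGR090W), a UtpC subunit and the member whose promoter window held neither motif, was called lower in 3 mutants. It had 314, 357 and 276 CPM in rad6Δ tagged, against 418, 451 and 401 in WT tagged. It had 299, 365 and 347 CPM in rad6Δ untagged and 330, 355 and 390 in H2B-K123R, against 508, 487 and 482 in WT untagged. The groups did not overlap in any of these comparisons. UTP22 fell by 0.42 (adjusted p = 0.0194), 0.55 (adjusted p = 0.00312) and 0.46 (adjusted p = 0.0182) in that order, each with an SE of 0.14. The rad6Δ untagged call was kept in every fit without 1 library. The rad6Δ tagged call was lost without rad6Δ tagged replicate 1 or 3 or WT tagged replicate 2 (largest adjusted p = 0.104), and the H2B-K123R call without H2B-K123R replicate 1 or WT untagged replicate 1 (largest adjusted p = 0.0896). UTP10 (YJL109C), a UtpA subunit, fell by 0.45 ± 0.12 (adjusted p = 0.00338) in rad6Δ untagged, with 422, 490 and 521 CPM, against 655, 610 and 693 in WT untagged, in every fit without 1 library.

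The clearest grouping by role was among the 4 box H/ACA proteins, the core of the small nucleolar particles that convert uridine to pseudouridine in rRNA. All 4 were called lower in rad6Δ tagged, where 20.2% of all genes were called lower. CBF5 (YLR175W), the pseudouridine synthase, had 546, 498 and 609 CPM in rad6Δ tagged, against 726, 640 and 744 in WT tagged, and fell by 0.35 ± 0.13 (SE; adjusted p = 0.0389). GAR1 (YHR089C) had 227, 225 and 247 CPM, against 282, 297 and 313, and fell by 0.35 ± 0.10 (adjusted p = 0.0059). NHP2 (YDL208W) had 300, 300 and 356 CPM, against 381, 418 and 486, and fell by 0.43 ± 0.13 (adjusted p = 0.0145). NOP10 (YHR072W-A) had 256, 263 and 318 CPM, against 426, 395 and 500, and fell by 0.66 ± 0.13 (adjusted p = 0.00045). None of these 4 transcripts overlapped between rad6Δ tagged and WT tagged. The GAR1 and NOP10 calls were kept in every fit without 1 library. CBF5 was lost without rad6Δ tagged replicate 1 or 2 or WT tagged replicate 1 or 3 (largest adjusted p = 0.132), and NHP2 without rad6Δ tagged replicate 1 or 2 or WT tagged replicate 3 (largest adjusted p = 0.091).

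In rad6Δ untagged, 1 of the 4 H/ACA genes was called lower, where 20.5% of all genes were called lower. GAR1 had 275, 255 and 272 CPM, against 313, 320 and 322 in WT untagged, and fell by 0.25 (adjusted p = 0.0406), a call kept only without rad6Δ untagged replicate 1 (largest adjusted p = 0.106). The other 3 had levels of 547, 581 and 649 (CBF5), 387, 343 and 345 (NHP2) and 328, 306 and 252 CPM (NOP10) in rad6Δ untagged, against 684, 672 and 662, 363, 456 and 391, and 345, 386 and 380 CPM in WT untagged, and missed the threshold. In rad6-R6Q, NOP10 had 303, 314 and 392 CPM, against 426, 395 and 500 in WT tagged, and fell by 0.39 (adjusted p = 0.0329), which was lost without rad6-R6Q replicate 1 or 2 or WT tagged replicate 3 (largest adjusted p = 0.166). The median log2 fold change of the 4 genes in rad6Δ tagged was −0.39, and it stayed below 0 at −0.20 with K. lactis scaling, −0.08 with plain K. lactis totals and −0.19 with total-count scaling, with 1 of the 4 still called under each.

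The box C/D proteins, which methylate rRNA 2′-hydroxyl groups, gave no call among their 4 members in any of the 6 comparisons in edgeR. Per mutant, 24.5% to 42.8% of all genes were called, and 4 genes are too few to show a difference from that. At an unadjusted p under 0.05 there was 1 of the 4 in rtf1-108-110AAA and 1 in rad6-R6A,M10A, and DESeq2 called 1 in rad6-R6A,M10A. NOP1 (YDL014W), the methyltransferase fibrillarin, had 135, 136 and 105 CPM in rad6Δ tagged, 130, 164 and 219 in rtf1-108-110AAA cells, 213, 185 and 158 in rad6-R6Q cells and 145, 142 and 212 in rad6-R6A,M10A, against 160, 156 and 119 in WT tagged. It had 113, 145 and 150 CPM in rad6Δ untagged and 175, 164 and 115 in H2B-K123R, against 210, 147 and 162 in WT untagged. Replicates of 1 strain differed by as much as strains did. The log2 fold changes ran from −0.34 (rad6Δ untagged, adjusted p = 0.188) to 0.35 (rad6-R6Q, adjusted p = 0.218), with an SE of 0.21, so a change of this size was not detectable for NOP1. UTP4 and PWP2, subunits of UtpA and UtpB, were called in none of the 6. UTP4 (YDR324C) had 399, 364 and 302 CPM in rtf1-108-110AAA, against 319, 334 and 364 in WT tagged, and PWP2 (YCR057C) 279, 291 and 291, against 221, 267 and 258. NOG1 (YPL093W), a GTPase of the large subunit, had 440, 454 and 449 CPM in rad6Δ tagged, against 517, 541 and 554 in WT tagged, without overlap and without a call.

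Single calls made up the rest of the lower members. In rad6Δ tagged, RLP7 (YNL002C), which resembles a ribosomal protein and binds pre-rRNA, had 79.4, 80.8 and 85.2 CPM, against 103, 132 and 138 in WT tagged, and fell by 0.61 ± 0.12 (SE; adjusted p = 0.00049) in every fit without 1 library. NOG2 (YNR053C), a large-subunit GTPase, had 352, 375 and 427 CPM, against 515, 529 and 608, and fell by 0.52 ± 0.16 (adjusted p = 0.011), which was lost without WT tagged replicate 3 (adjusted p = 0.0553). The NOG2 gene contains the small nucleolar RNA gene SNR191 on the same strand, so reads of the pair may not be fully separable. NOC3 (YLR002C) fell by 0.31 (adjusted p = 0.0395), RCL1 (YOL010W) by 0.27 (adjusted p = 0.0372) and UTP9 (YHR196W) by 0.40 (adjusted p = 0.0232), and they kept their calls in 3, 2 and 3 of 6 fits without 1 library. All 3 calls were lost without rad6Δ tagged replicate 1 or 2 or WT tagged replicate 3, and RCL1 also without WT tagged replicate 2 (largest adjusted p 0.177 for NOC3, 0.0813 for RCL1 and 0.132 for UTP9). IMP3 (YHR148W) was the member with the lowest counts in most groups, down to 61 in 1 library. It had 7.29, 11.1 and 8.99 CPM in rad6-R6Q, against 12.6, 14.8 and 13 in WT tagged, and fell by 0.56 ± 0.20 (adjusted p = 0.0444), a call kept only without rad6-R6Q replicate 2 (largest adjusted p = 0.176).

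Members differed more in level than they did between strains. Per kilobase of gene, NOP10, the shortest at 177 bases, was highest in every group, at 1580 CPM per kilobase in rad6Δ tagged and 2490 in WT tagged. The median member had 165 to 207 CPM per kilobase across the 8 groups. IMP3 was lowest in 7 groups, at 16.2 to 22.6 CPM per kilobase, and NOP2 in WT tagged at 24.3. Replicate spread also differed between members. The within-group SD of log2 CPM, over 16 residual degrees of freedom, had a median of 0.165 over members, and 11 members exceeded 0.2. NUG1 (0.411), ERB1 (0.368), NOP1 (0.279) and HAS1 (0.277) had the widest spread. ERB1 (YMR049C), a PeBoW subunit, had 178, 155 and 203 CPM in rad6-R6A,M10A and 102, 185 and 240 in rtf1-108-110AAA, against 95.6, 142 and 86.7 in WT tagged. The rad6-R6A,M10A libraries lay wholly above WT tagged and those of rtf1-108-110AAA overlapped it. These were the largest positive fold changes of a member in both strains, at 0.72 ± 0.27 (SE; adjusted p = 0.0603) and 0.70 ± 0.27 (adjusted p = 0.0682) on the log2 scale, and neither was called. Across the 24 libraries, deviations from the group mean of these 4 ran against the median of the other members, with Pearson's r of −0.40, −0.53, −0.52 and −0.37, while 28 of the 50 had r above 0.5 with it and 10 had a negative r. These correlations share libraries and depth and are a description only.

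Longer members tended toward higher log2 fold changes in some of the mutants. Spearman's rho between length and log2 fold change over the 50 members was 0.41 in rad6Δ tagged, 0.36 in rad6-R6A,M10A, 0.27 in rtf1-108-110AAA, 0.26 in rad6Δ untagged, 0.14 in rad6-R6Q and 0.01 in H2B-K123R. Over 5569 tested genes with a reference length it was 0.19, 0.16, 0.16, 0.13, 0.11 and −0.02 in the same order. In rtf1-108-110AAA, 7 of the 25 members above the median length of 1725 bases were called higher and 1 of the 25 shorter ones (all genes 11.9%). In rad6-R6A,M10A the counts were 5 of 25 among the longer members, and all 5 calls in that strain fell there (12%). In rad6Δ tagged, 7 of the 25 shorter members were called lower and 4 of the longer (20.2%). In rad6-R6Q the median log2 fold change ran the other way, at 0.09 for the longer and 0.18 for the shorter members. Shares of all genes by length were not computed. Longer genes collect more counts, and the part of length in these calls was not tested.

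Direct comparisons between mutants were fitted in the same model. No member was called between rad6Δ tagged and rad6Δ untagged in edgeR, with 2 at an unadjusted p under 0.05, none in DESeq2 and 0.207% of all genes called. Of the 50 members, 48 were nonetheless lower in rad6Δ tagged than in rad6Δ untagged, with a median log2 difference of −0.11 and a range of −0.34 to 0.15. Members vary together between libraries, and 28 of the 50 had an r above 0.5 with the median of the others. Such sign counts are therefore not separate observations, and they are given as a description without a count over all genes. WT tagged against WT untagged had no call either (4 members at an unadjusted p under 0.05, none in DESeq2, 0.674% of all genes called), with a median of 0.09. The interaction term, which asks whether deletion of RAD6 acted differently in the tagged and untagged strains, called no member in edgeR (8 at an unadjusted p under 0.05, none in DESeq2, 0.276% of all genes called). Its median was −0.21 and 39 of 50 members were negative. The 11 lower calls in rad6Δ tagged and the 8 higher calls in rad6Δ untagged are therefore not shown to differ for any single member, and the offset between them has contributions from both the deletion and the WT strains. H2B-K123R against rad6Δ untagged gave no call (2 at an unadjusted p under 0.05, none in DESeq2, 10.5% of all genes called), with differences of −0.25 to 0.34.

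Against rad6Δ tagged, the members called in the point mutants were all higher. The sign counts in these comparisons are a description too, with no count over all genes beside them. In rtf1-108-110AAA against rad6Δ tagged, 9 members were called higher, against 6.44% of all genes called higher and 14.3% called either way, all 50 members had a positive log2 difference (0.08 to 0.51, median 0.26), and 24 members lay wholly above rad6Δ tagged, against 13.9% of all genes. In rad6-R6Q against rad6Δ tagged, 9 were called higher, against 8.2% of all genes higher and 16.4% either way, with a median of 0.22, 43 of 50 positive and a range of −0.27 to 0.60. The groups did not overlap for 15 members, all above, against 13.2% of all genes, and the fit with the replicate number as a block called 14. In rad6-R6A,M10A against rad6Δ tagged, 2 were called higher, against 3.71% higher and 8.55% either way, a share near that of all genes. The median was 0.22, 48 of 50 were positive, and 19 members lay wholly above, against 14.3% of all genes. GAR1 was called higher in all 3, at 368, 309 and 317 CPM in rtf1-108-110AAA, 383, 290 and 376 in rad6-R6Q cells and 285, 308 and 318 in rad6-R6A,M10A, against 227, 225 and 247 in rad6Δ tagged. Its log2 differences were 0.51 (adjusted p = 0.00097), 0.59 (adjusted p = 0.00027) and 0.38 (adjusted p = 0.0161), and they were kept in every fit without 1 library. CBF5 was higher by 0.46 (adjusted p = 0.022) in rtf1-108-110AAA and 0.60 (adjusted p = 0.00365) in rad6-R6Q, and the second was kept in every such fit while the first was lost without rad6Δ tagged replicate 1 or 2 or rtf1-108-110AAA replicate 1 (largest adjusted p = 0.0784). NSR1 was higher by 0.47 (adjusted p = 0.0317) in rtf1-108-110AAA and 0.51 (adjusted p = 0.0323) in rad6-R6A,M10A, and each call was kept in 2 of 6 fits. Both were lost without rad6Δ tagged replicate 1 or 2, the rtf1-108-110AAA difference also without that strain's replicate 2 or 3, and the rad6-R6A,M10A difference without its own replicate 2 or 3 (adjusted p up to 0.173).

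The counts against rad6Δ tagged also rested on few libraries. Shares of all genes in the fits without 1 library are not given here, so those counts describe the members only. Without rad6Δ tagged replicate 1, the calls against rad6Δ tagged were 1 in rtf1-108-110AAA, 3 in rad6-R6Q cells and 1 in rad6-R6A,M10A, and without rad6Δ tagged replicate 2 they were 3, 2 and 1. They were 5 without rtf1-108-110AAA replicate 2. In rad6-R6Q they were 2 without replicate 1 or without replicate 3 and 18 without replicate 2, and in rad6-R6A,M10A they were 4, 1 and 1 without replicates 1, 2 and 3. Among the point mutants, no member was called between rad6-R6Q and rad6-R6A,M10A (7 at an unadjusted p under 0.05, none in DESeq2, 0.0345% of all genes called), rtf1-108-110AAA and rad6-R6A,M10A (1, none and 0.0691%) or rtf1-108-110AAA and rad6-R6Q (3, none and 0%). Without rad6-R6Q replicate 2, 1 member was called between rad6-R6Q and rad6-R6A,M10A. The differences between these 3 strains ran from −0.43 to 0.36, so they are not shown to act alike.

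The same dependence held for the counts against WT, and the libraries are named here, again without shares of all genes. Without WT tagged replicate 1, rtf1-108-110AAA had 3 calls and rad6-R6Q 7, and without rtf1-108-110AAA replicate 2 rtf1-108-110AAA had 5. Without rad6-R6Q replicate 1 there were 5 calls and without replicate 3 there were 7, while without replicate 2 there were 16. That library had a summed member level of 22353 CPM, against 25763 and 25727 in the other 2 rad6-R6Q libraries. In rad6Δ tagged there were 6 calls without its replicate 1, 8 without its replicate 2 and 6 without WT tagged replicate 3. In rad6Δ untagged there were 7 without WT untagged replicate 1. In H2B-K123R there were no calls without WT untagged replicate 1, 1 without H2B-K123R replicate 3 and 2 without WT untagged replicate 3. H2B-K123R replicate 3 had a summed level of 25593 CPM, against 22022 and 21288 in the other 2.

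How libraries are scaled set where 0 lies for all genes. A change of scaling shifts the log2 fold changes of all genes in a comparison by nearly the same amount. The gap between the members and all genes is therefore nearly fixed by construction and is given only as a description. Relative to the median of all genes, the members' median was −0.16 in rad6Δ tagged, 0.06 in rad6Δ untagged cells, 0.15 in H2B-K123R, 0.16 in rtf1-108-110AAA cells, 0.13 in rad6-R6Q cells and 0.08 in rad6-R6A,M10A with TMM. With K. lactis scaling these differences were −0.16, 0.06, 0.15, 0.17, 0.13 and 0.08. The median of all genes itself moved to 0.21, 0.12, −0.09, 0.25, 0.19 and 0.21 in the same order, and with plain K. lactis totals to 0.33, 0.24, 0.04, 0.24, 0.17 and 0.26. With total-count scaling it moved to 0.22, 0.22, 0.17, 0.05, 0.03 and 0.07. As a result 25 members were called in rtf1-108-110AAA, 20 in rad6-R6Q cells and 17 in rad6-R6A,M10A with K. lactis scaling, all of them higher, against 28.1%, 27.2% and 24.4% of all genes called higher in the same order. Of the 53 calls made with TMM, 37 were kept with K. lactis scaling, 36 with plain K. lactis totals and 39 with total-count scaling. RCL1 in rad6Δ tagged changed sign with plain K. lactis totals and no other called member changed sign under these 3 scalings.

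**Figure D3:**
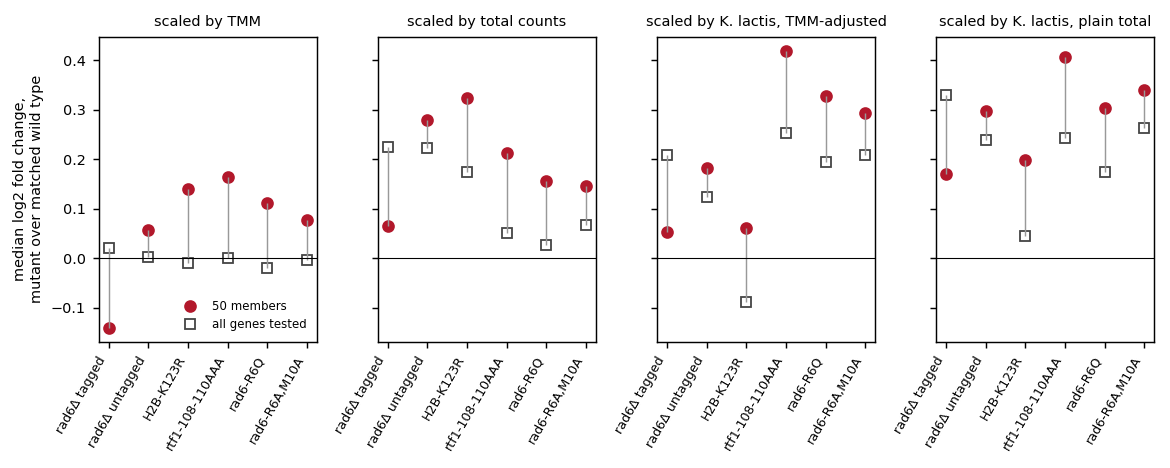
Median log2 fold change of the 50 members and of all genes tested in each of the 6 mutants against its WT under each scaling. A change of scaling shifts all genes of a comparison by nearly the same amount. The distance between the 2 medians is therefore nearly fixed by construction (0.16 to 0.17 in rtf1-108-110AAA with TMM and with K. lactis scaling).

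Ribosomal protein genes encode the proteins that these factors assemble into subunits. Of 139 tested, 103 were called in rad6Δ tagged, 110 in rad6Δ untagged and 46 in H2B-K123R, all of them lower, and 14 were lower and 3 higher in rtf1-108-110AAA, 27 and 4 in rad6-R6Q cells and 25 and 2 in rad6-R6A,M10A. Their median log2 fold change was −0.55, −0.59, −0.34, −0.15, −0.25 and −0.21 in that order. With K. lactis scaling the medians were −0.36, −0.47, −0.43, 0.11, −0.04 and 0.00, so the sign in rtf1-108-110AAA flipped. The median of all genes moved by nearly the same amount. The ribosomal protein median thus stayed below it in all 6 mutants by construction (0.11 against 0.25 in rtf1-108-110AAA). Many ribosomal protein genes exist as near-identical pairs, so single genes of this list are uncertain. The ratio of summed ribosomal protein counts to summed counts of the 50 factors does not depend on the scaling, and it was computed after the values had been seen. It was 7.21 ± 0.476 in rad6Δ tagged, 7.86 ± 0.166 in rtf1-108-110AAA cells, 7.98 ± 0.436 in rad6-R6Q cells and 7.79 ± 0.336 in rad6-R6A,M10A, against 10.03 ± 1.04 in WT tagged (SD, n = 3 each). It was 6.94 ± 0.638 in rad6Δ untagged and 7.93 ± 0.643 in H2B-K123R, against 10.5 ± 0.236 in WT untagged. All 18 mutant libraries lay between 6.21 and 8.49, and all 6 WT libraries between 9.01 and 11.09.

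**Figure D4:**
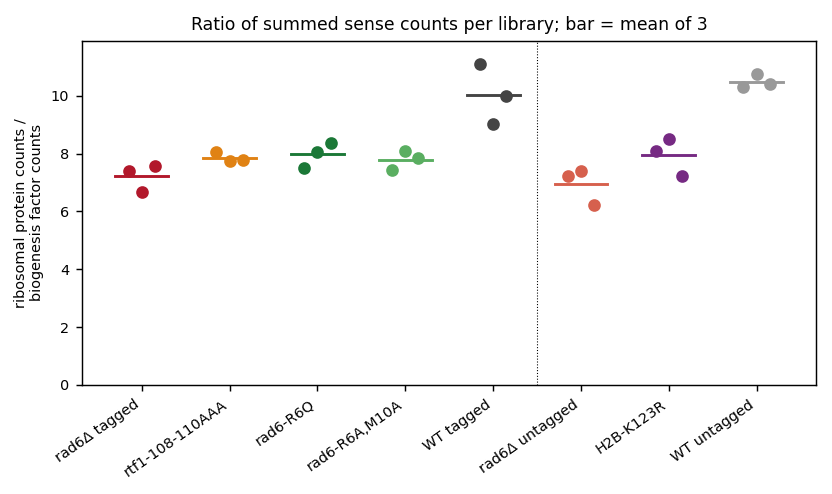
Ratio of summed ribosomal protein sense counts to summed counts of the 50 biogenesis factors in each library (points), with the mean of 3 libraries (bars), mutants left of their WT. The 18 mutant libraries (6.21 to 8.49) do not overlap the 6 WT libraries (9.01 to 11.09).

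Other genes of the pathway were read from lists of assembly factors outside the 50. Of 44 small-subunit assembly factors that are not members, 14 were called in rad6Δ untagged, 9 in H2B-K123R and 10 in rad6-R6A,M10A, all of them higher, and 8 were higher and 1 lower in rtf1-108-110AAA, 9 and 1 in rad6-R6Q cells and 6 and 6 in rad6Δ tagged. The large-subunit list was broad, and some genes on it, such as MRD1 and NPA3, are not large-subunit factors in the strict sense. Of its 62 genes, 12 were higher and 5 lower in rad6Δ untagged, 8 and 4 in H2B-K123R cells and 13 and 6 in rtf1-108-110AAA cells. The counts were 10 and 5 in rad6-R6Q cells, 9 and 6 in rad6-R6A,M10A and 11 and 16 in rad6Δ tagged. RNA polymerase I genes (17 tested) had at most 3 calls in either direction in any mutant, and RNA polymerase III genes (19 tested) at most 5. Of 20 regulators of ribosome biogenesis genes, 6 were higher and 3 lower in rad6Δ tagged, 7 and 5 in rad6Δ untagged cells, 3 and 4 in H2B-K123R, 5 and 1 in rad6-R6Q cells and 3 and 1 in rad6-R6A,M10A, and all 5 calls in rtf1-108-110AAA were higher. General stress response genes, which in yeast often move opposite to biogenesis genes, had 13 of 26 called higher in rad6Δ tagged, 12 in rad6Δ untagged and 12 in H2B-K123R cells, and 1 in rtf1-108-110AAA cells, 3 in rad6-R6Q cells and 2 in rad6-R6A,M10A. All genes were called higher at 21.5%, 22.3% and 14% in the first 3 strains and 11.9%, 14.6% and 12% in the others. The part of the stress genes in the members' values was not tested.

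**Figure D5:**
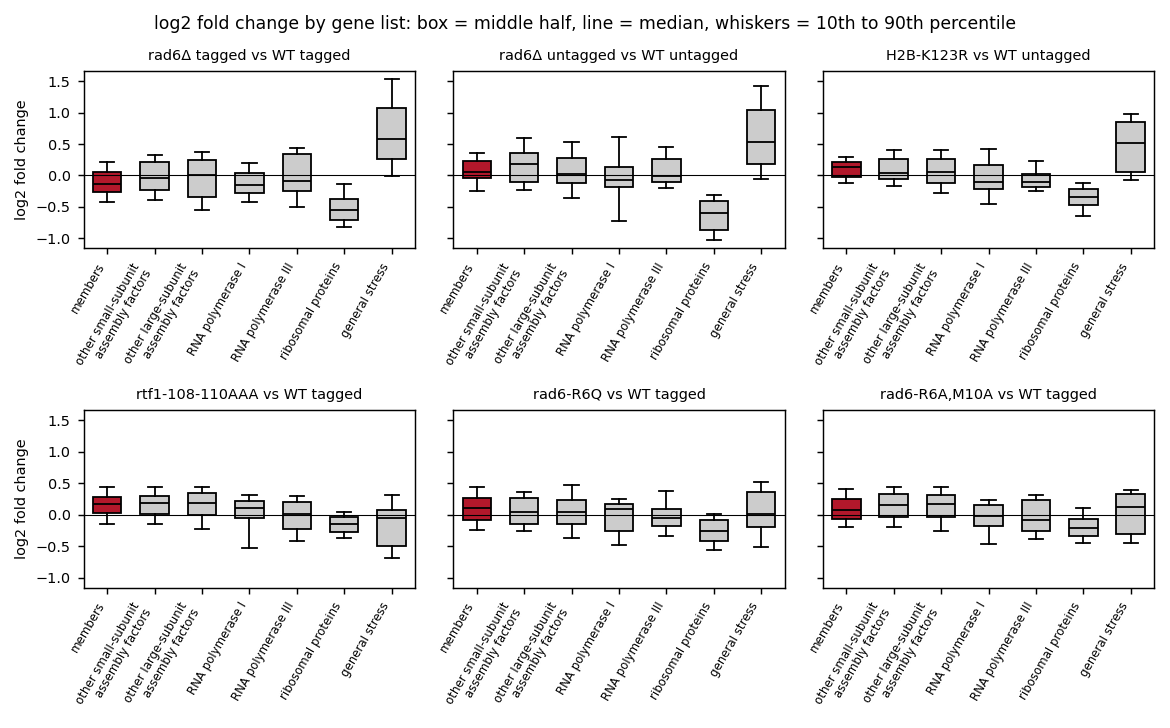
Log2 fold change (vertical axis) over the genes of each list in the 6 mutants against their WT, 1 panel per mutant, with boxes from the lower to the upper quartile, a line at the median and whiskers from the 10th to the 90th percentile. The ribosomal protein box lies lowest in the rad6Δ panels (medians of −0.55 and −0.59), where the 50 biogenesis factors (red) have medians of −0.14 and 0.06.

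Antisense RNA at the same loci was a second readout. Of the 50 members, 26 had enough antisense counts to be tested among 3900 antisense rows. UTP10 was called higher on the antisense strand in all 6 mutants, where 27.7% (rad6Δ tagged), 29.2% (rad6Δ untagged) and 33% (H2B-K123R) of all antisense rows were called. The share was 20% for rtf1-108-110AAA, 20.7% for rad6-R6Q and 18.6% for rad6-R6A,M10A. Antisense counts at UTP10 were 24, 24 and 26 in rad6Δ tagged, 14, 8 and 36 in rtf1-108-110AAA cells, 31, 30 and 20 in rad6-R6Q cells and 21, 30 and 28 in rad6-R6A,M10A, against 3, 4 and 9 in WT tagged. They were 25, 29 and 39 in rad6Δ untagged and 30, 30 and 23 in H2B-K123R, against 2, 6 and 13 in WT untagged. All mutant groups except rtf1-108-110AAA, where 1 library had 8, lay wholly above their WT. The log2 fold changes were 2.16 ± 0.45 (SE; adjusted p = 6e-04) in rad6Δ tagged, 2.0 ± 0.43 (adjusted p = 7e-04) in rad6Δ untagged, 1.90 ± 0.43 (adjusted p = 0.00108) in H2B-K123R and 1.73 ± 0.46 (adjusted p = 0.00787) in rtf1-108-110AAA. They were 2.01 ± 0.45 (adjusted p = 0.00168) in rad6-R6Q and 2.15 ± 0.45 (adjusted p = 0.00102) in rad6-R6A,M10A. The rtf1-108-110AAA call was lost without rtf1-108-110AAA replicate 3 (1.14, adjusted p = 0.126) or WT tagged replicate 1 (1.47, adjusted p = 0.0515), and the other 5 were kept whichever library was left out.

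The UTP10 antisense signal was small, at 0.43% to 0.709% of the sense and antisense counts of the locus together in the mutants, against 0.119% in WT tagged and 0.129% in WT untagged. UTP10 lies at chrX:212000-217309 on the minus strand, and its neighbours GZF3 and PRM10 lie on the same strand, so neither gene runs toward it from the opposite strand. The sense transcript of UTP10 was called lower in rad6Δ untagged alone among the 6, at 422 to 521 CPM, against 610 to 693 in WT untagged. Antisense at UTP4 was higher in rad6Δ tagged, at 12, 7 and 15 counts, against 5, 0 and 1 in WT tagged (2.40 ± 0.84, adjusted p = 0.0327). Antisense at ARX1 was lower, at 2, 6 and 3 counts in rad6Δ tagged (−2.06 ± 0.61, adjusted p = 0.0109) and 5, 11 and 1 in rad6-R6Q (−1.75 ± 0.57, adjusted p = 0.0283), against 18, 13 and 15 in WT tagged. These counts are too few to give levels beyond their direction.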

How the data were processed

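RNA libraries of 24 samples (8 strains, 3 biological replicates each) were made with a directional kit after rRNA depletion, per the labels' protocols. The authors deposited raw read counts per gene: sense, antisense and unstranded tables for S. cerevisiae and a table for the K. lactis spike-in. The submitters' processing notes name STAR 2.7.5a, featureCounts, DESeq2 and the builds R64 and sacCer3. Of the 6571 identifiers, 5897 matched an R64 locus tag, and the others held 0.133% of the sense counts.

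Sense counts of all 24 libraries were fitted together by group in edgeR 4.0.16 (R 4.3.3, limma 3.58.1) with filterByExpr, TMM factors and robust quasi-likelihood F tests, and p-values were adjusted over the 5790 genes tested. Antisense counts were fitted with the sense library sizes and TMM factors. The p-values measure the spread between cultures of 1 strain per group. The code was tested on simulated data.

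The members and gene lists were chosen with earlier results of these data known. Genes named with values were 1 or more per role class, the largest called changes each way per mutant, and the members called most often; UTP10, UTP4 and ARX1 antisense and the ribosomal protein ratio were chosen after their values were seen. No table of promoters was used, and windows were read from the R64 genome. No member had a copy of 90% identity over 50% of its length, by BLAST+ 2.17.0.

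Same-numbered libraries were correlated in their deviations from the group means. Every pair was above 0.1 in rad6Δ tagged against WT tagged (0.188 to 0.517), rad6-R6Q against WT tagged (0.267 to 0.422) and rad6-R6Q against rad6Δ tagged (0.172 to 0.409). The main fits held group means only, so the calls and adjusted p-values above do not use such a pairing. The replicate block was run as an alternative, and its counts are given below. Alternatives were K. lactis scaling, RLE factors, no filter, unstranded counts, the groups compared alone, DESeq2 1.42.0, a replicate block and leaving out each library. Total-count scaling, plain K. lactis totals and the alternatives for UTP10 antisense were added after seeing the data. Depth limits the precision of members with few counts, such as IMP3, but the widest errors were those of NUG1 and ERB1, whose replicates spread most.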

Additional observations from a re-analysis of the deposited data

How the results depend on the processing

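DESeq2, RLE factors and the replicate block kept all 53 calls of members against WT, no filter kept 52, unstranded counts 51, and fits of the compared groups alone 40. With K. lactis scaling the counts that moved were H2B-K123R 2, rtf1-108-110AAA 25, rad6-R6Q 20, rad6-R6A,M10A 17, H2B-K123R against rad6Δ untagged 4 and rtf1-108-110AAA against rad6Δ tagged 17, with medians of 0.053 (rad6Δ tagged, reversed), 0.18 (rad6Δ untagged), 0.33 (rad6-R6Q), 0.42 (rtf1-108-110AAA) and 0.29 (rad6-R6A,M10A). With plain K. lactis totals they were rad6Δ untagged 19, rtf1-108-110AAA 27, rad6-R6Q 18, rad6-R6A,M10A 21, H2B-K123R against rad6Δ untagged 3, and, against rad6Δ tagged, rtf1-108-110AAA 4, rad6-R6A,M10A 1 and rad6-R6Q 2, with medians of 0.17 (rad6Δ tagged, reversed), 0.30 (rad6Δ untagged), 0.30 (rad6-R6Q), 0.41 (rtf1-108-110AAA) and 0.34 (rad6-R6A,M10A), and NOP1 in rad6Δ tagged reversed to 0.10. With total-count scaling they were rad6Δ untagged 21, H2B-K123R 24, rad6-R6A,M10A 11, and, against rad6Δ tagged, 2 for rad6-R6Q and 1 each for rtf1-108-110AAA and rad6-R6A,M10A, with medians of 0.064 (rad6Δ tagged, reversed), 0.28 (rad6Δ untagged) and 0.32 (H2B-K123R). These scalings moved the median of all genes by construction. Fits of the compared groups alone, with fewer samples for the spread, called 4 (rtf1-108-110AAA, all genes 14.4%), 3 (rad6-R6Q, 15.1%) and 2 (rad6-R6Q against rad6Δ tagged). DESeq2 called 8 in rad6-R6A,M10A and, against rad6Δ tagged, 17 in rtf1-108-110AAA, 6 in rad6-R6A,M10A and 15 in rad6-R6Q; the cause was not tested. The replicate block called 14 in rad6-R6Q against rad6Δ tagged, where same-numbered libraries deviated together. Its counts against WT were 14 (rad6Δ tagged, all genes 43.2%), 12 (rad6Δ untagged, 44.2%) and 5 (H2B-K123R, 27.5%). They were 13 (rad6-R6Q, 31.2%), 10 (rtf1-108-110AAA, 25.9%) and 7 (rad6-R6A,M10A, 26.5%), and the block ended no call of a member against WT. Without 1 library, counts ran from 6 to 13 (rad6Δ tagged), 7 to 10 (rad6Δ untagged), 0 to 4 (H2B-K123R), 3 to 10 (rtf1-108-110AAA), 5 to 16 (rad6-R6Q) and 4 to 6 (rad6-R6A,M10A). Against rad6Δ tagged they ran from 1 to 10 (rtf1-108-110AAA), 1 to 4 (rad6-R6A,M10A) and 2 to 18 (rad6-R6Q), and 0 to 1 for rad6-R6Q against rad6-R6A,M10A. Shares of all genes are not given for fits without 1 library or for mutants compared directly under other settings. Those counts therefore describe the members only. NOP1 in rad6-R6A,M10A ran from −0.0083 (without its replicate 3, reversed) to 0.30. UTP10 antisense kept its direction and calls under every scaling, filter and block run. Depth limits IMP3 and the antisense counts most, and REI1, NOP2 and NUG1 also had fewer counts than most members. NUG1 had the widest replicate spread (within-group SD of 0.411).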
